A study of Mus musculus with 15 samples.

Results

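The 47 genes described here are NRF2 and KEAP1 and the genes of glutathione and antioxidant metabolism, taken as a fixed list by symbol, and all 47 were found among the 37991 gene identifiers of the count table. They comprise the transcription factor and its repressor, 8 classical NRF2 targets, 4 genes of glutathione synthesis and reduction, 20 glutathione transferases (17 cytosolic and 3 mitochondrial or membrane-bound), 3 glutathione peroxidases, 4 superoxide dismutase and catalase genes and 6 peroxiredoxins. Their RNA was measured by sequencing of whole liver from female C57BL/6 mice in 3 groups of 5 animals, 1 library per animal. Young WT mice were 90 days old, old WT mice 600 days old, and old KO mice 600 days old and without S6K1 (Rps6kb1), a kinase downstream of mTOR. The knockout is of the whole body and present from the germline, WT and KO mice came from heterozygous breeding, and there was no young KO group, so genotype was compared in old mice alone.

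NRF2, encoded by Nfe2l2, is the transcription factor that turns on detoxification and antioxidant genes through the antioxidant response element. KEAP1 holds it in the cytoplasm and directs its degradation, and electrophiles or oxidants that modify KEAP1 release it. Its targets make the tripeptide glutathione, join it to electrophiles through glutathione transferases, and recycle thioredoxin, and the liver is the main organ of this detoxification. Glutathione peroxidases, peroxiredoxins, catalase and superoxide dismutases remove peroxides and superoxide, and many of them are expressed constitutively.

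Old WT livers held more transcript than young WT livers of 14 of the 45 members that could be tested, and less of 3, with 28 not called. Among the members called, the 3 tested alpha glutathione transferases, 4 of the 6 listed mu transferases, microsomal Mgst3 and Gclc rose the most. They rose by 1.53-fold to 3.63-fold, and Gclc is the rate-limiting enzyme of glutathione synthesis. Catalase, the superoxide dismutases, the glutathione peroxidases and Keap1 were not called. Between old KO and old WT livers edgeR called 1 member, the heme-degrading enzyme Hmox1, which was lower. It called no glutathione transferase for genotype, whereas DESeq2 called Gstm7. The summed level of the transferases per length was 2860 ± 140.3 RPKM in young WT, 3539 ± 392 RPKM in old WT and 4209 ± 239.9 RPKM in old KO livers (mean ± SD, n = 5 each). Old WT (3051 to 3948 RPKM) and old KO (3815 to 4441 RPKM) libraries overlapped, and this sum carries no test.

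A call is an adjusted p under 0.05 in edgeR's quasi-likelihood test with Benjamini-Hochberg adjustment over all 14258 genes tested. CPM are counts scaled by the TMM-corrected library size (for 1 gene between libraries), RPKM are CPM per kilobase of exon (for levels between genes), and log2 fold changes carry the standard error (SE) of the fit. Values of the libraries are listed in the order young WT 1, 2, 3, 4 and 6, old WT 1, 4, 5, 7 and 10, and old KO 1, 2, 4, 5 and 6. For age, 17 of 45 tested members were called (37.8%), beside 18.8% of all genes tested. The 14 higher stand beside 9.92% of all genes called higher and the 3 lower beside 8.91% called lower. The median log2 fold change of the 45 was 0.22, beside 0.0080 over all genes. In 10 members every old WT library lay above every young WT library, and in 1 every old WT library lay below, beside 5.78% of all genes with no overlap on the higher side, 5.67% on the lower side and 11.4% in either direction. The heat map of all tested members by library shows the rise in the rows of Gsta2, Gsta3, Gsta4, Gstm1, Gstm3, Gstm6, Mgst3 and Gclc.

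**Figure D1:**
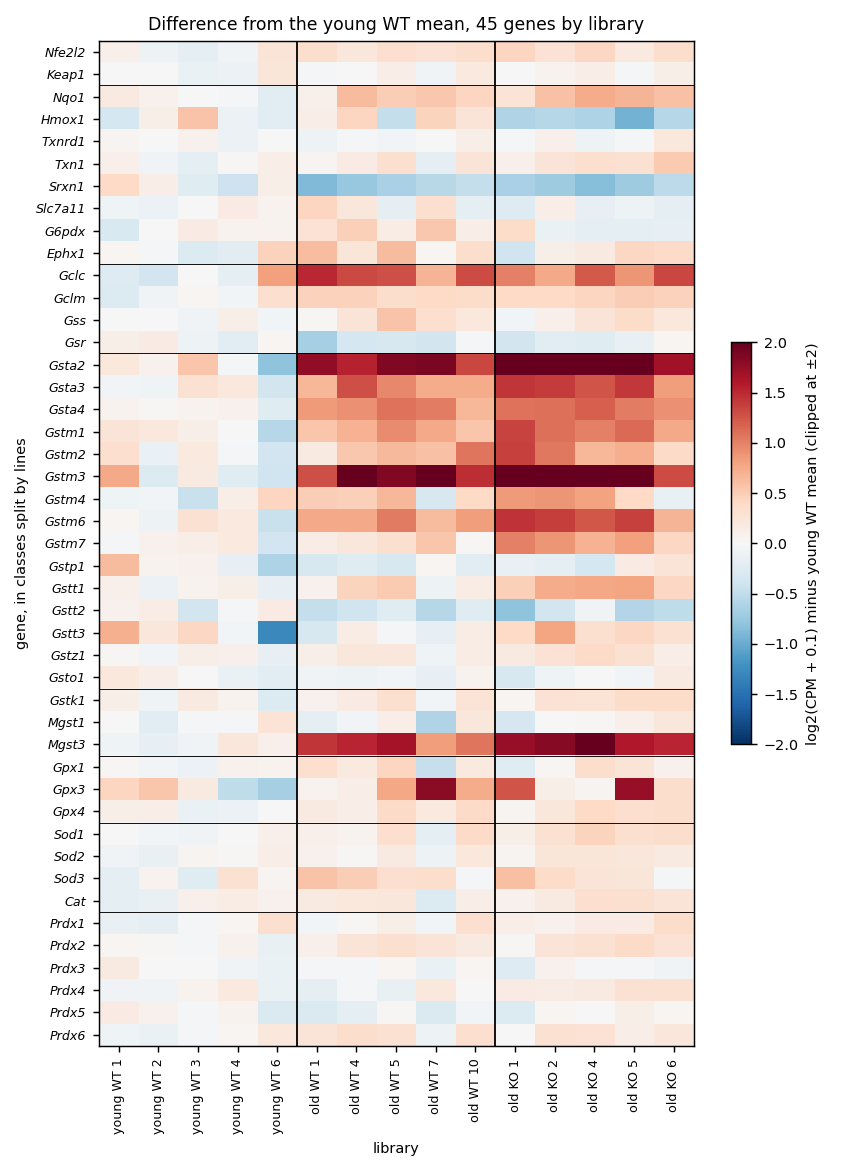
Difference of each library from the young WT mean on the scale of log2(CPM + 0.1) for the 45 members tested (rows, in their classes) in 15 libraries (columns), with red above and blue below the young WT mean and colours clipped at 2. Gsta2, Gsta3, Gsta4, Gstm3 and Mgst3 are red in all 10 old libraries, and Srxn1 is blue in all of them.

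Total counts per library were 21801754 to 38065359, so counting error is small for all but the lowest members. Rps6kb1 itself stood at 33.3 to 45.4 CPM in the 10 WT libraries and 15.2 to 20.8 CPM in the 5 old KO libraries (log2 fold change -1.17, SE 0.098, adjusted p = 8.54e-06), so reads of the gene remained in the knockout. Hepatocyte markers were abundant in every library (summed 94829 to 156630 CPM over 10 genes), with 2 of 10 called lower for age and 0 for genotype by edgeR. Over all genes 8.91% were called lower for age and 0.533% in either direction for genotype. Of 10 lymphocyte and leukocyte markers 5 were called higher for age, beside 9.92% of all genes. The 10 summed to 12.2 to 30.1 CPM (young WT) and 29.97 to 47.9 CPM (old WT). The part of these cells in the members' changes was not tested. In young WT 6, the library of lowest depth, Gclc and Gsta4 stood apart from the rest of the group, old WT 7 stood apart on the second principal component, and old KO 6 held skeletal muscle transcripts (summed 20.05 CPM over 5 markers, at most 0.187 CPM elsewhere). Without these 3 libraries, an alternative chosen after seeing the data, 17 members were again called for age, and 13 of them were the same. With age all 10 monocyte and macrophage markers lay above 0 on the log2 scale (median 0.50, 1 called higher). So did all 6 bile duct markers (median 0.54, 1 called higher) and 6 of 8 stellate and fibroblast markers (median 0.13, 1 called higher). Of 8 endothelial markers 7 lay below 0 (median -0.42, 2 called lower). The part of these cells in the members' changes was not tested either. In whole liver, fewer cells of a type and less RNA per cell cannot be told apart.

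The regulators come first. Nfe2l2 (ENSMUSG00000015839, NCBIM37 chr2:75513570-75542698, minus strand) stood at 80.3, 70.3, 65.8, 71.9 and 89.5 CPM in young WT, 96, 87.9, 94.9, 91.8 and 95.6 CPM in old WT and 101, 91.99, 100.3, 86.03 and 95.6 CPM in old KO livers. The groups of young and old WT overlapped through young WT 6, the highest of its group, and the rise with age had a log2 fold change of 0.30 (SE 0.081, adjusted p = 0.0173). Old KO and old WT livers differed by 0.027 (SE 0.081, adjusted p = 0.944). Keap1, the repressor, stood at 36.9 ± 4.04 CPM in young WT, 37.99 ± 2.92 in old WT and 38.4 ± 1.83 in old KO livers, and was not called in any comparison. A list of 12 partners and regulators of NRF2 held small MAF proteins, BACH1 and BACH2, the ubiquitin ligase that KEAP1 serves, and kinases. For age edgeR called 0 of them, beside 18.8% of all genes, and 2 had an unadjusted p under 0.05, beside 33%. Their median log2 fold change was 0.015, beside 0.0080 over all genes. DESeq2 called 1 of the 12 for age, limma voom 0. For genotype edgeR, DESeq2 and limma voom called 0 of the 12, beside 0.533% of all genes in edgeR. In edgeR 1 of the 12 had an unadjusted p under 0.05, beside 11.6% of all genes.

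NRF2 binds the antioxidant response element, whose core is TGACNNNGC. The core was searched on both strands in the RefSeq promoters of the members (GRCm38.p6, 250 bases before to 50 after the start); a core whose middle letters are TCA also contains the AP-1 motif TGACTCA. Of 40 members with a promoter in the table, 10 held the core (25%), beside 14% of 27025 genes of all kinds. Of those 10, 3 were called higher with age and 1 lower (Srxn1, whose core lies after the start). Of the 30 without a core in these 300 bases 9 were called higher and 0 lower, and 2 were not tested. Over all genes 9.92% were called higher and 8.91% lower. No sequence outside the 300 bases was searched, so these 30 may hold a core elsewhere. A match is a description and not a bound site. The sequences before the starts of the 3 called members that hold the core upstream are shown. The core is in capitals, and the last base lies next to the start site. The 3 lie at chr2:75704664-75704913, minus strand for Nfe2l2, at chr3:122245307-122245556, plus strand for Gclm and at chr1:21240335-21240584, plus strand for Gsta3, all in GRCm38.p6.
Nfe2l2: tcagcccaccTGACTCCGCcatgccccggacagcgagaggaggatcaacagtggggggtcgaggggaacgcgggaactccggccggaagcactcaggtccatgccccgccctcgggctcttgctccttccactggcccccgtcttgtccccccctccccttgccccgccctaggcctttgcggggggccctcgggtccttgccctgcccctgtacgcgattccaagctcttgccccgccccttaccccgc
Gclm: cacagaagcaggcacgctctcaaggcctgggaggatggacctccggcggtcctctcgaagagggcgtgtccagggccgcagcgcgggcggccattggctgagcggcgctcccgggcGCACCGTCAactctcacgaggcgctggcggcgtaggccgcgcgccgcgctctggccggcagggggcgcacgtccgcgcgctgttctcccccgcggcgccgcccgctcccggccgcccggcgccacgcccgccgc
Gsta3: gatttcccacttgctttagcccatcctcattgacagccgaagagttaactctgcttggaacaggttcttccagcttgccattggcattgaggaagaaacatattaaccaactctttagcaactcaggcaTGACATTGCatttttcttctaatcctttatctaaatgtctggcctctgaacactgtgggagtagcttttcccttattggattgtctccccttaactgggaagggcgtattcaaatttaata
In the 3 sequences the core starts at base -240, -134 and -121 from the start site, and in Gclm it lies on the strand opposite to the gene. Gsr, Sod3, Gclc, Hmox1, Gstt2, Gsta4 and Prdx6 have no entry in the promoter table.

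Among the classical targets 1 rose, 1 fell and 6 were not called with age (25% called, beside 18.8% of all genes). Nqo1, a quinone reductase and the target most used to read NRF2 activity, stood at 14.01, 13.2, 12.4, 12.1 and 10.6 CPM in young WT, 13.2, 19.3, 17.4, 18.03 and 16.8 CPM in old WT and 15.01, 18.6, 20.7, 19.96 and 18.6 CPM in old KO livers. All old libraries but old WT 1 lay above the young ones, and its log2 fold change with age was 0.44 (SE 0.11, adjusted p = 0.0121). Srxn1, which repairs overoxidized peroxiredoxins, moved the other way, with 114, 94.7, 73.4, 65.03 and 93.6 CPM in young WT, 46.7, 50.9, 55.3, 58.7 and 62.3 CPM in old WT and 54.9, 52.9, 47.8, 52.99 and 60.3 CPM in old KO livers. Every old library lay below every young one, and Srxn1 fell by 0.69 on the log2 scale (SE 0.13, adjusted p = 0.00262). Txnrd1 and Txn1, the cytosolic thioredoxin system, had log2 fold changes of -0.01 (SE 0.074) and 0.13 (SE 0.10) with age. G6pdx, which supplies NADPH, and Ephx1, an epoxide hydrolase, were at 0.32 (SE 0.14) and 0.37 (SE 0.17), each with an unadjusted p under 0.05 but an adjusted p of 0.116 and 0.133. G6pdx lies across Ikbkg on the other strand, and the strand setting of the counting is not given in the sources used here, so its count may include reads of its neighbour. Slc7a11, the cystine importer, was at 2.11 to 2.59 CPM in young WT and 2 to 3.16 CPM in old WT livers and was not called.

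All 4 genes of glutathione synthesis and reduction were called with age, 3 higher and 1 lower, beside 18.8% of all genes called. Gclc (ENSMUSG00000032350, NCBIM37 chr9:77602342-77642292, plus strand), the catalytic subunit of glutamate-cysteine ligase, stood at 158, 146, 189.6, 166 and 336 CPM in young WT, 539.9, 476, 463, 305 and 469 CPM in old WT and 382, 322, 444, 349 and 480.2 CPM in old KO livers. Young WT 6 was far above the rest of its group and overlapped the old libraries. The log2 fold change with age was 1.18 (SE 0.21, adjusted p = 0.00194), and without young WT 6 it was 1.45 (adjusted p = 9.08e-05). Gclm, the regulatory subunit of the same enzyme, stood at 151, 174, 187, 176 and 231 CPM in young WT, 251, 252, 232, 239 and 235 CPM in old WT and 238, 239, 245, 256 and 249 CPM in old KO livers. The old groups were tight, all 10 libraries lay above young WT, and the log2 fold change with age was 0.40 (SE 0.091, adjusted p = 0.00774). Gss, the enzyme that completes glutathione, stood at 41.6, 41.3, 39.5, 44.7 and 39.9 CPM in young WT, 42.2, 49.2, 61.7, 52.5 and 48.1 CPM in old WT and 39.8, 44.2, 49.7, 53.7 and 47.7 CPM in old KO livers. The groups overlapped, and the log2 fold change with age was 0.29 (SE 0.10, adjusted p = 0.0443). Gsr, which reduces oxidized glutathione, stood at 89.8, 92.2, 76.9, 70.4 and 84.9 CPM in young WT, 52.2, 64.9, 66.2, 63.7 and 81.5 CPM in old WT and 64.2, 70.96, 69.3, 74.6 and 84.6 CPM in old KO livers. Old WT 10 lay within the young range, and Gsr fell by 0.33 on the log2 scale (SE 0.11, adjusted p = 0.0438). Gss overlaps Acss2 on the opposite strand, and unless reads were counted by strand those of the pair cannot be told apart. The calls of Gss and Gsr were lost in most fits with 1 library left out. With 1 library left out, Gss kept its call only without old WT 1 (adjusted p 0.0237 to 0.124 over 10 such fits), and Gsr only without young WT 4 or old WT 10 (0.0126 to 0.105).

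**Figure D2:**
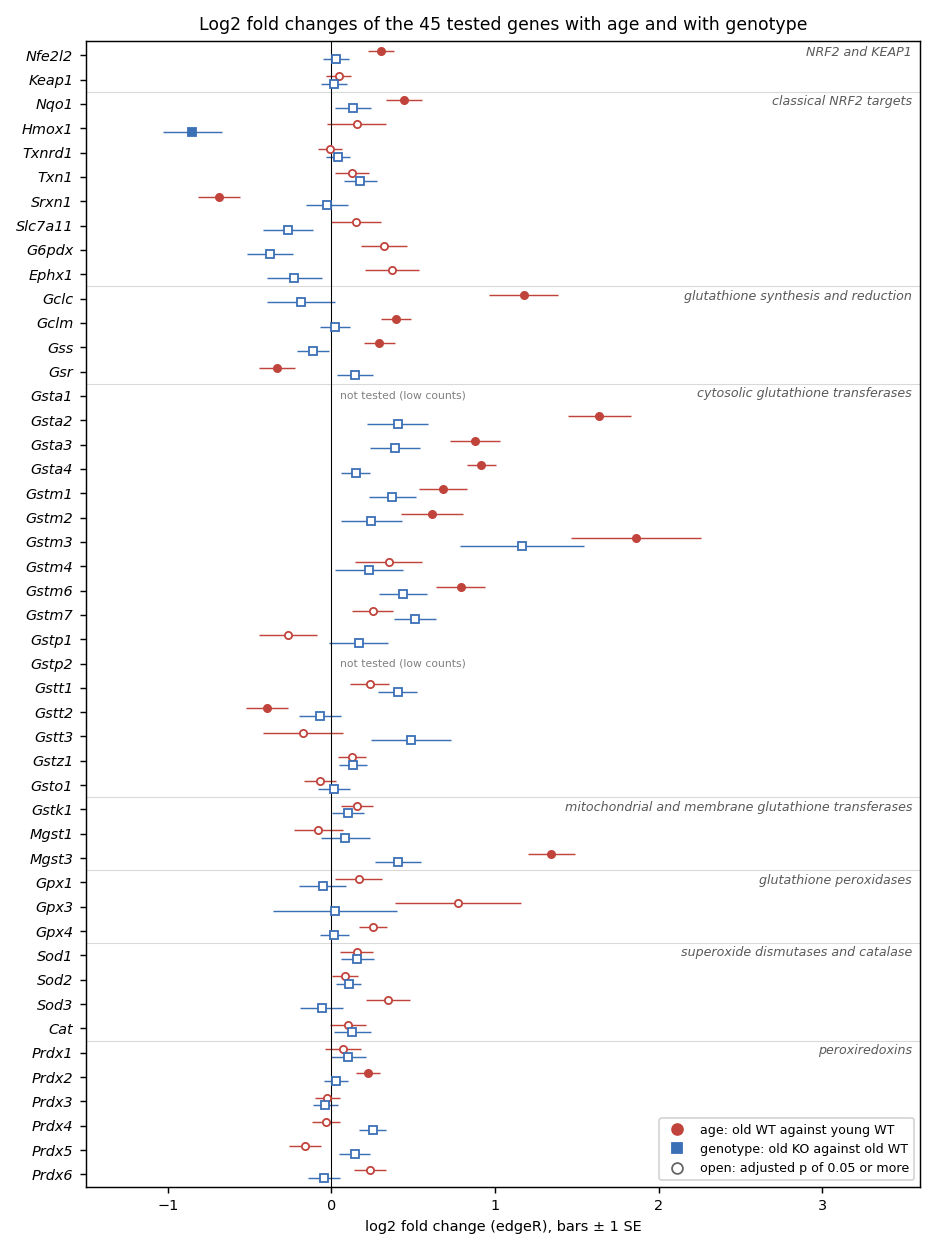
Log2 fold change with 1 SE for each of the 45 tested members in their classes (Gsta1 and Gstp2 were not tested), for age (old WT against young WT, circles) and genotype (old KO against old WT, squares), filled where the adjusted p was under 0.05. Age shifts Gsta2, Gstm3, Mgst3 and Gclc by more than 1, and Hmox1 is the one filled square.

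The alpha family of glutathione transferases includes enzymes that clear products of lipid peroxidation. All 3 of its members that could be tested were called higher with age, beside 9.92% of all genes. Gsta2 stood at 6.77, 6.23, 8.64, 5.69 and 3.32 CPM in young WT, 20.3, 17.3, 21.5, 21.96 and 14.9 CPM in old WT and 23.8, 30, 28.8, 25.4 and 19.03 CPM in old KO livers. Every old library was above every young one, with a log2 fold change with age of 1.64 (SE 0.19, adjusted p = 0.000147). Gsta3 (ENSMUSG00000025934, NCBIM37 chr1:21230670-21255442, plus strand), with Gstm1 the most abundant cytosolic transferase per length here, stood at 562, 549.8, 723, 677 and 455 CPM in young WT, 925, 1433, 1146, 979.7 and 979 CPM in old WT and 1575, 1548, 1408, 1560.5 and 1049 CPM in old KO livers. Its log2 fold change with age was 0.88 (SE 0.15, adjusted p = 0.00166), with no overlap between young and old WT. Gsta4, specialised for 4-hydroxynonenal, stood at 29.2, 28.5, 29.1, 29.5 and 23.6 CPM in young WT, 50.6, 52.6, 59.6, 56.9 and 44.3 CPM in old WT and 59.5, 59.7, 63.9, 56.9 and 52.5 CPM in old KO livers. It had the smallest adjusted p of the members for age, at a log2 fold change of 0.92 (SE 0.088, adjusted p = 2.50e-05). Gsta1 failed the filter, with 7 counts in the 5 young WT, 54 in the 5 old WT and 20 in the 5 old KO libraries. An exact 2-sided permutation test of its log2(CPM + 0.1) gave p = 0.0476 for age and 0.294 for genotype, where the smallest p that 252 assignments allow is 0.00794. DESeq2, and edgeR without the filter on low counts, called Gsta1 for age. Gsta1, Gsta2 and Gsta4 lie together at chr9:78039773-78203595 in NCBIM37, and Gsta3 on chromosome 1. Of the 50-base windows of the exons, 88.6% of Gsta1 and 47.6% of Gsta2 recur elsewhere in the genome, so their counts may be lost or shared among near-identical copies, whereas no window of Gsta3 or Gsta4 recurs.

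Of the mu family 6 genes are members, at chr3:107729252-107847812 of NCBIM37, and 4 of the 6 were called higher with age, beside 9.92% of all genes. Gstm5, which is not a member and stands in a later list, was also called for age, a call lost under several alternatives. It stood at 3.11 to 5.73 CPM in young WT and 5.70 to 8.47 CPM in old WT livers. Gstm1, the major mu enzyme of mouse liver, stood at 662, 640.3, 601, 553 and 376 CPM in young WT, 817, 901, 1071, 940.0 and 815 CPM in old WT and 1416, 1194, 1112, 1217 and 943 CPM in old KO livers. All old libraries lay above all young ones, and the log2 fold change with age was 0.68 (SE 0.14, adjusted p = 0.00507). Gstm3 had the largest fold change of the members, from 11.2, 5.40, 7.43, 5.54 and 4.96 CPM in young WT to 16.3, 28.6, 23.97, 39.04 and 18.4 CPM in old WT and 112, 58.9, 40.6, 54.9 and 16.3 CPM in old KO livers. Its old KO libraries were widely spread, with old KO 6 lowest and old KO 1 highest, and the log2 fold change with age was 1.86 (SE 0.40, adjusted p = 0.00515). Gstm6 stood at 20.9, 19.1, 25.3, 23.5 and 15 CPM in young WT, 34.6, 34.6, 42.3, 31.6 and 36.7 CPM in old WT and 55.8, 53.4, 48.4, 52.7 and 32.7 CPM in old KO livers. Young and old WT did not overlap, with a log2 fold change of 0.79 (SE 0.15, adjusted p = 0.00262). Gstm2 stood at 47.8, 34.6, 43.5, 37.4 and 28.9 CPM in young WT, 42.8, 55.2, 59.6, 57.1 and 79.9 CPM in old WT and 97.6, 78.9, 60.2, 62.8 and 49.3 CPM in old KO livers. Its groups overlapped, the log2 fold change with age was 0.62 (SE 0.19, adjusted p = 0.0319), and the call was lost without young WT 2, 4 or 6 or old WT 5 or 10 (adjusted p up to 0.0817). Gstm4 and Gstm7 were at 0.35 (SE 0.21) and 0.25 (SE 0.13) and were not called. Gstm3 and Gstm6 overlap on the same strand, and 25.1% of the windows of Gstm1, 20.7% of Gstm2, 17% of Gstm3 and 14.9% of Gstm6 recur elsewhere in the genome, so these 4 are not independent of each other.

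The remaining transferases varied. Mgst3, a microsomal transferase that also reduces lipid hydroperoxides, stood at 7.77, 7.33, 7.82, 9.67 and 8.88 CPM in young WT, 22.5, 23.9, 26.3, 14.9 and 17.5 CPM in old WT and 27.7, 29.4, 33.2, 25.4 and 23.9 CPM in old KO livers. No old library reached down to the young range, and the log2 fold change with age was 1.34 (SE 0.14, adjusted p = 7.84e-05). Mgst1, the most abundant transferase per length in young and old WT livers, was at 2261 ± 286 CPM in young WT and 2139.9 ± 449 CPM in old WT, a log2 fold change of -0.079 (SE 0.15, adjusted p = 0.744). Gstt2, of the theta family, stood at 68.1, 71.6, 49.8, 63.4 and 72.6 CPM in young WT, 46.4, 49.1, 54.8, 43.2 and 54.5 CPM in old WT and 36.8, 49.9, 61.5, 43.1 and 45.1 CPM in old KO livers. The groups overlapped through young WT 3, and Gstt2 fell by 0.39 on the log2 scale (SE 0.13, adjusted p = 0.0432). Without 1 library its call held only without young WT 3 or old WT 10 (adjusted p 0.0204 to 0.0971 over 10 such fits). Gstt1, Gstt3, Gstp1, Gstz1, Gsto1 and Gstk1 had log2 fold changes with age from -0.26 to 0.23 and were not called. Gstp2 failed the filter with 40, 54 and 28 counts in the 3 groups (exact permutation p of 0.333 for age and 0.230 for genotype), and 84.2% of its windows and 79.9% of those of Gstp1 recur elsewhere, in part in each other.

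**Figure D3:**
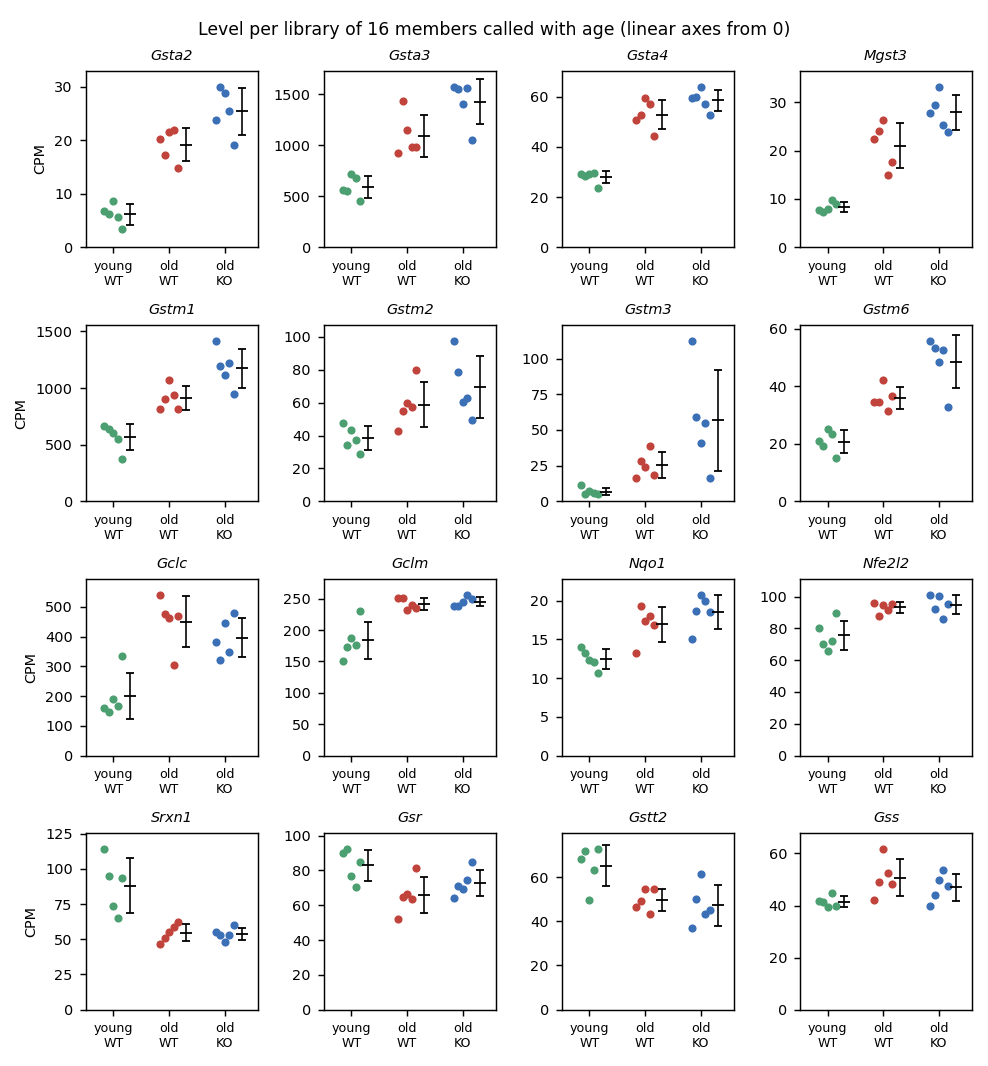
CPM of 16 of the 17 members called with age in each library (points, linear axes from 0), with the mean and SD of each group beside them. Gsta2, Gsta4, Mgst3, Gstm1, Gstm6 and Gclm have no old library within the young WT range, Gclc overlaps through young WT 6, and Srxn1 lies lower in all old libraries.

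Levels per length set these changes in proportion. In young WT livers the most abundant members were Gpx1 (1244 ± 71.6 RPKM), Mgst1 (1123 ± 142), Cat (943 ± 99.1) and Sod1 (745 ± 35.01), whereas Gsta3 (426 ± 76.9) and Gstm1 (406 ± 82) had ranks 5 and 6 of the members. Mgst1 and Cat differed by less than 2 SD of either, and Gsta3 and Gstm1, like Gstm1 and Gstz1 (392 ± 31.1), lay within 1 SD of each other. In old KO livers Gsta3 (1026 ± 159.7 RPKM) had rank 4, closer to Cat (1106 ± 76.2) than its own SD. Mgst1 made up 39.4% of the summed RPKM of the 20 transferases in young WT, 29.9% in old WT and 27% in old KO livers. The share of Gsta3 was 14.9%, 22.1% and 24.3%, and that of Gstm1 14.2%, 18.5% and 20%. The alpha members summed to 628 ± 110.6 CPM in young WT, 1165 ± 208 CPM in old WT and 1512 ± 228 CPM in old KO livers. The mu members summed to 706 ± 121.6, 1119 ± 116.6 and 1468 ± 252 CPM. Gsta3 and Gstm1 supply most of these sums. For all 20 transferases the ratio of old KO to old WT summed CPM was 1.18, and 1.12 when counts were scaled by library totals alone. These sums are a description of chosen genes and carry no test.

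**Figure D4:**
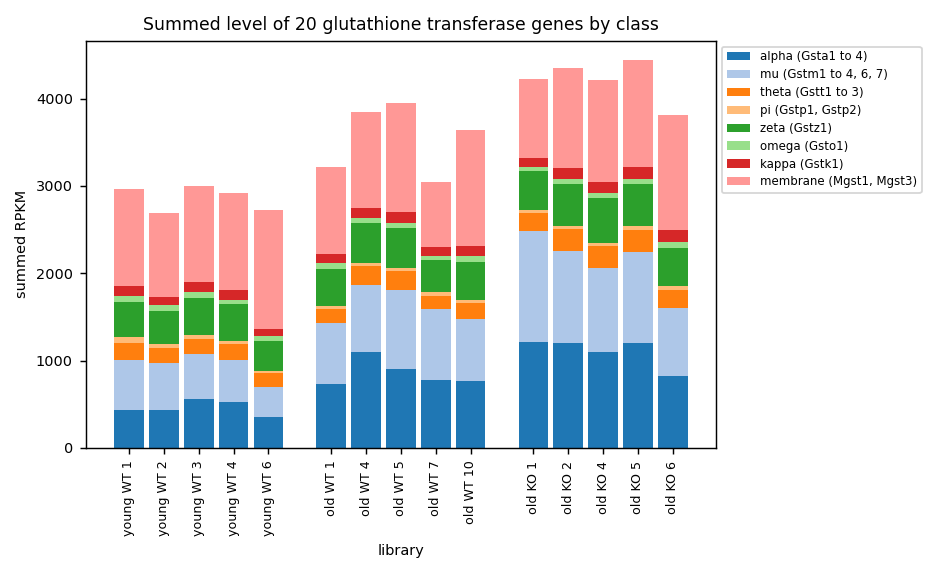
Summed RPKM of the 20 glutathione transferases in each library (bars from 0), divided by class. Totals run from 2694 to 2999 (young WT), 3051 to 3948 (old WT) and 3815 to 4441 (old KO), and the alpha and mu segments differ most between groups.

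Enzymes that remove peroxides and superoxide were mostly not called with age, and of the 6 peroxiredoxins 1 was (16.7%), beside 18.8% of all genes. The 3 glutathione peroxidases, the 3 superoxide dismutases and catalase gave 0 calls by edgeR, beside 18.8% of all genes. Of them 2 had an unadjusted p under 0.05, beside 33% of all genes. All had log2 fold changes above 0, beside 51.2% of all genes. Gpx4, which protects membranes from lipid peroxidation, came nearest, with no overlap between young WT (133 to 160.4 CPM) and old WT (161 to 191 CPM) and a log2 fold change of 0.25 (SE 0.087, adjusted p = 0.0505), and DESeq2 and limma voom called it higher. Gpx1, the abundant cytosolic peroxidase, was at 0.17 (SE 0.14), Cat at 0.10 (SE 0.11), Sod1 at 0.15 (SE 0.10) and mitochondrial Sod2 at 0.082 (SE 0.078). Counts of Gpx4, Sod2 and Sod1 are uncertain, since 34.7%, 25.5% and 20.7% of their 50-base windows recur elsewhere in the genome. Extracellular Sod3 was at 0.35 (SE 0.13, adjusted p = 0.0767), and Gpx3, the secreted plasma peroxidase, at 0.77 (SE 0.39, adjusted p = 0.174) with old WT 7 far above its group. Of 6 peroxiredoxins, Prdx2 rose, at 56.3, 55.7, 53.7, 58.2 and 49.5 CPM in young WT, 58.7, 65.3, 68.3, 65.1 and 61.9 CPM in old WT and 55.3, 65.3, 67.7, 70.9 and 67.1 CPM in old KO livers. Its log2 fold change was 0.22 (SE 0.074, adjusted p = 0.0443) with no overlap between young and old WT, and with 1 library left out the call held only without old WT 1 (adjusted p 0.0421 to 0.104). Prdx2 overlaps Rnaseh2a on the opposite strand. It is abundant in red blood cells, whose 7 markers had summed levels of 47.3 to 110.4 CPM (young WT), 79.8 to 165 CPM (old WT) and 107 to 397 CPM (old KO). Of the 6 tested, 0 were called for age by edgeR, but all 6 had a log2 fold change above 0 (median 0.67). The part of these cells in the Prdx2 value was not tested. Prdx1, Prdx3, Prdx4, Prdx5 and Prdx6 had log2 fold changes from -0.16 to 0.24 and were not called.

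For genotype 1 of 45 tested members was called (2.22%), beside 0.533% of all genes in either direction and 0.421% called lower. Hmox1 (ENSMUSG00000005413, NCBIM37 chr8:77617490-77624495, plus strand), which breaks heme down to biliverdin, iron and carbon monoxide, stood at 16.01, 22.3, 30.4, 18.9 and 17.4 CPM in young WT, 22.5, 27.6, 14.6, 27.7 and 24.5 CPM in old WT and 13.4, 13.8, 13.3, 10.6 and 13.8 CPM in old KO livers. Every old KO library lay below every old WT library, beside 2.08% of all genes with no overlap on that side (3.2% in either direction), and Hmox1 fell by 0.85 on the log2 scale (SE 0.18, adjusted p = 0.0484). Old KO was also below young WT in every library at a log2 fold change of -0.69 (SE 0.18, adjusted p = 0.0127), and old WT and young WT differed by 0.15 (SE 0.18, adjusted p = 0.578). The call for genotype sat at the threshold. Over the 10 fits that left out 1 library the log2 fold change was -0.98 to -0.79 and the adjusted p 0.011 to 0.128, with the call kept only without old WT 5. DESeq2 gave an adjusted p of 0.00198 and limma voom 0.102, and without young WT 6, old WT 7 and old KO 6 edgeR gave 0.0953.

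Macrophages of the liver take up aged red cells and express Hmox1. Of 10 markers of monocytes and macrophages, all 10 had a log2 fold change below 0 for genotype (median -1.11). By edgeR 4 of 10 were called lower, beside 0.421% of all genes. In 6 of 10 the groups had no overlap, beside 2.08% of all genes on that side, and none was at 0 in all libraries. Summed over the 10, old WT libraries held 307 to 668 CPM and old KO libraries 168 to 286 CPM, with young WT libraries at 204 to 485 CPM. Clec4f, a marker of resident macrophages, stood at 106, 135, 51.4, 69.2 and 88.5 CPM in old WT and 41.3, 42.5, 30.5, 41.3 and 31.7 CPM in old KO livers, a log2 fold change of -1.27 (SE 0.24, adjusted p = 0.0292). Cd5l was at -1.47 (SE 0.26, adjusted p = 0.0247), Cd68 at -1.18 (SE 0.24, adjusted p = 0.0384) and Vsig4 at -1.19 (SE 0.25, adjusted p = 0.0484). The part of these cells in the Hmox1 value was not tested.

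**Figure D5:**
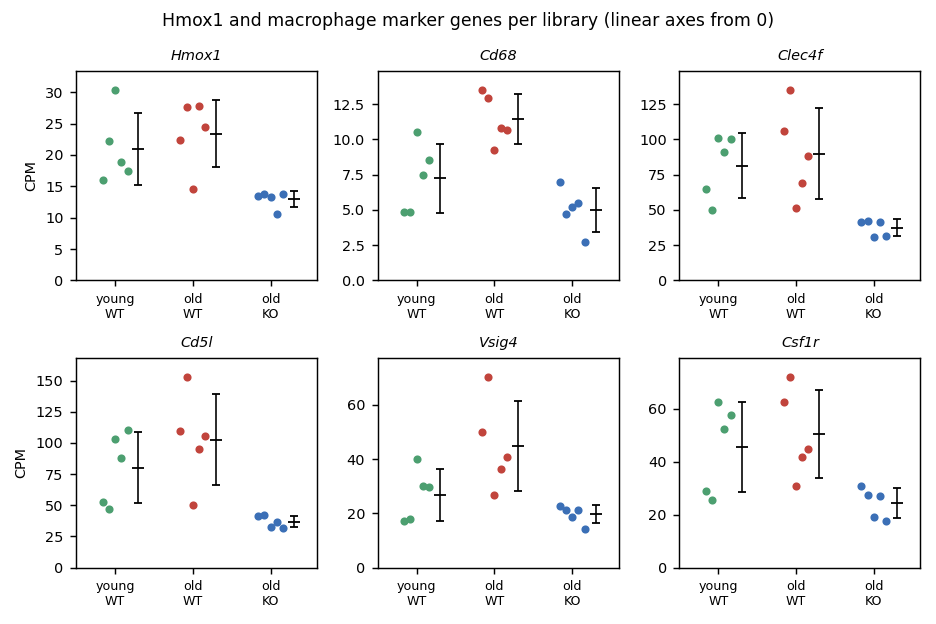
CPM of Hmox1 and 5 macrophage marker genes in each library (points, linear axes from 0) with the mean and SD of each group. In all 6 panels the 5 old KO libraries lie below the 5 old WT libraries. The markers shown are 5 of the 6 without overlap among the 10 listed, and the other 4 of the 10 overlapped.

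No glutathione transferase was called for genotype by edgeR, with 8 of 18 tested at an unadjusted p under 0.05, beside 11.6% of all genes. Their log2 fold changes were above 0 in 17 of 18 (50.2% of all genes), with a median of 0.31 beside 0.0008 over all genes, and ran from -0.07 to 1.17. The hepatocyte markers lay on the same side, 9 of 10 above 0 with a median of 0.22, and their part in the transferase values was not tested. Several are paralogs that lie together and may share reads, so they are not independent. Gstm7 came nearest to a call, with 36.1, 39.1, 40.6, 42.1 and 28.2 CPM in young WT, 40.8, 43, 46.2, 54.4 and 37.4 CPM in old WT and 74.4, 68.1, 59.6, 65.3 and 48.9 CPM in old KO livers. Its old groups overlapped at a log2 fold change of 0.51 (SE 0.13, adjusted p = 0.0865). DESeq2 called it (adjusted p = 0.0129), and limma voom did not (0.105). With 1 library left out, edgeR called it in 0 of 10 fits (adjusted p 0.0605 to 0.222). Without young WT 6, old WT 7 and old KO 6, a set chosen after seeing the data, edgeR called it (0.0065). That set leaves out the highest old WT and the lowest old KO library of Gstm7. Gstm3 was at 1.17 (SE 0.38, adjusted p = 0.204), Gstm6 at 0.44 (SE 0.15, adjusted p = 0.223), Gstt1 at 0.41 (SE 0.12, adjusted p = 0.162) and Gsta3 at 0.39 (SE 0.15, adjusted p = 0.317). Gstt3 was the one transferase whose old KO libraries (74.1 to 104 CPM) all lay above old WT (48.1 to 66.9 CPM), beside 1.12% of all genes, at 0.49 (SE 0.25, adjusted p = 0.467). In Gsta2, Gstm1, Gstm3, Gstm6 and Gstm7 old KO 6, the library with muscle transcripts, was the only old KO library within the old WT range. The other 27 members had a median log2 fold change of 0.022, 16 of them above 0. Gclc was at -0.19 (SE 0.21), Gclm at 0.022 (SE 0.091), Nqo1 at 0.13 (SE 0.11) and Srxn1 at -0.027 (SE 0.13), none of them called.

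Old KO and young WT livers differ in both age and genotype, and this comparison shares its libraries with the other 2, so it adds no independent support. In it 19 members were called higher and 3 lower of 45 tested, beside 23.3% of all genes called in either direction, 12% higher and 11.3% lower. In 14 of the 45 every old KO library lay above every young WT library and in 2 below, beside 7.32% and 6.56% of all genes (13.9% together). Of the 14 members called higher with age, 13 were also called higher here and Gss, at 0.18 (SE 0.10), was not. A further 6 were called here alone, namely Gstm7, Gstt1, Gstz1, Gpx4, Sod1 and Txn1, at 0.76, 0.64, 0.26, 0.27, 0.31 and 0.30. Over 10 fits with 1 library left out, the calls of Sod1 and Txn1 were each lost in 8, that of Gstz1 in 7 and that of Gpx4 in 5, whereas those of Gstm7 and Gstt1 were kept in all 10. Gpx4 was also called for age by DESeq2 and limma voom. Prdx2 was again called higher, at 0.25 (SE 0.074, adjusted p = 0.0213), beside 5 of 6 red blood cell markers called higher (median 1.71), and their part in its value was not tested. Side by side, the log2 fold change against young WT was 1.64 in old WT and 2.04 in old KO livers for Gsta2. It was 0.88 and 1.27 for Gsta3, 0.68 and 1.05 for Gstm1, 1.34 and 1.75 for Mgst3, 1.18 and 0.99 for Gclc, and -0.69 and -0.71 for Srxn1.

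The lists that follow were chosen with earlier results of these data known, so they are not independent checks. A list of 26 genes known as NRF2 targets gave 8 higher and 2 lower of 25 tested with age (40%, beside 18.8% of all genes). Its median log2 fold change was 0.25, beside 0.0080 over all genes. The 4 of smallest adjusted p all rose. Abcc4, an efflux pump of the basolateral membrane, was at 5.03, 2.96, 5.77, 4.07 and 7.46 CPM in young WT, 18.8, 20.7, 15.4, 12.4 and 20.9 CPM in old WT and 27, 15.7, 21.8, 14.04 and 14.7 CPM in old KO livers. It had no overlap between young WT and any old library and a log2 fold change with age of 1.81 (SE 0.24, adjusted p = 0.00027). Cyp2a5, the coumarin hydroxylase, was at 1.03 (SE 0.21, adjusted p = 0.00457), the aldehyde oxidase Aox1 at 0.56 (SE 0.12, adjusted p = 0.00427) and the pentose phosphate enzyme Tkt at 0.51 (SE 0.12, adjusted p = 0.00749). For genotype edgeR, DESeq2 and limma voom called 0 of the 25, beside 0.533% of all genes in edgeR. In edgeR 2 of the 25 had an unadjusted p under 0.05, beside 11.6% of all genes. Another list, of 31 other glutathione and thioredoxin genes of which 30 matched, gave 7 higher and 1 lower of 27 tested with age (29.6%, beside 18.8% of all genes), with a median of 0.20. Its 8 calls fell to 4 without young WT 1, young WT 2 or old WT 5 and to 5 without old WT 1. Chac2, a glutathione-degrading enzyme, was at 0.76 (SE 0.19, adjusted p = 0.0109), mitochondrial thioredoxin reductase Txnrd2 at 0.50 (SE 0.13, adjusted p = 0.0141), the aminopeptidase Anpep at 0.58 (SE 0.15, adjusted p = 0.016) and the glyoxalase enzyme Hagh at 0.33 (SE 0.09, adjusted p = 0.0192). With genotype 0 of these 27 were called by edgeR, DESeq2 or limma voom. In edgeR 0 had an unadjusted p under 0.05, beside 11.6% of all genes.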

How the data were processed

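Stranded poly(A) libraries of whole liver were sequenced by the authors as single 50-base reads, mapped to mm9 with TopHat (TopHat2 2.0.11 in the submitters' processing notes) and counted per gene with HTSeq. The annotation and the strand setting are not given in the sources used here. The deposited values are raw counts, without normalization or pooling. Groups came from the sample titles. Symbols, exon lengths and positions came from GENCODE M1 on NCBIM37, the build of mm9. Counts were scaled by TMM, filtered with filterByExpr and fitted over all 15 libraries in edgeR 4.0.16 (R 4.3.3). DESeq2 1.42.0, limma 3.58.1 (voom), other scalings, filters and sample sets were alternatives. The scripts were tested on simulated data. The members and lists were chosen with earlier results of these data known. Members called for age or genotype were described by library, and genes of the other lists were named if called for genotype or among the 4 smallest adjusted p for age. Libraries of a group came from separate animals, and differed beyond sampling noise.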

Additional observations from a re-analysis of the deposited data

Results flagged for a closer look

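Of 135 groups of 5 libraries, 11 held a library far from the other 4 by Dixon's test, where chance gives about 1 in 20. Old WT 7 was the library in 4 of the 11, with the highest Gstp1 (31.8 CPM) and Gpx3 (22 CPM) and the lowest Cat (2026 CPM) and Prdx6 (364 CPM) of its group. Young WT 6 had the highest Gclc (336 CPM, the others 146 to 189.6 CPM) and the lowest Gsta4 (23.6 CPM). Old KO 1 had the highest G6pdx (5.65 CPM) and the lowest Prdx5 (95.1 CPM). Old KO 2 had the highest Gstt3 (104 CPM), old KO 5 the lowest Hmox1 (10.6 CPM) and old KO 6 the highest Prdx1 (848 CPM).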

How the results depend on the processing

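Neither the log2 fold changes with age of the 17 members called nor that of Hmox1 with genotype changed sign under any alternative run. Of the 17 members called with age, 8 (Gclc, Srxn1, Gsta2, Gsta3, Gsta4, Gstm1, Gstm6 and Mgst3) kept their call under every alternative run, 4 (Nfe2l2, Nqo1, Gclm and Gstm3) lost it under the replicate block alone, and Gss, Gsr, Gstm2, Gstt2 and Prdx2 lost it under several. With 1 library left out, 12 to 15 members were called with age, 0 to 1 with genotype and 17 to 23 between old KO and young WT. The labels do not say whether the replicate numbers pair the animals. Deviations of same-numbered libraries correlated at -0.15 to 0.077 over 9 pairs, which cannot settle it. With the number as a block 8 members were called with age, 0 with genotype and 4 of the other glutathione and thioredoxin genes with age. For genotype DESeq2 called 2 members, limma voom 0 and edgeR with DESeq2's size factors 0. The partners of NRF2 gave 1 call with age in DESeq2 and 0 to 1 with 1 library left out, and the other glutathione and thioredoxin genes 4 to 11. Without young WT 6, old WT 7 and old KO 6, an alternative chosen after seeing the data, they gave 3 and 14. The cause of these differences was not tested. No scaling moved the median of all genes by more than 0.1. Depth limits Gsta1 and Gstp2, at 7 to 54 counts per group.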
